A study of Mus musculus with 8 samples.

Results

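Non-homologous end joining is the repair route that ligates the 2 ends of a broken chromosome directly, and 10 of its genes were followed here in MBL2 cells treated with a PARP inhibitor, a histone deacetylase inhibitor or both. The genes were taken by symbol from the deposited table of expression values, and all 10 were found among the 12260 genes listed: Xrcc5, Xrcc6, Prkdc, Lig4, Xrcc4, Nhej1, Dclre1c, Poll, Trp53bp1 and Rif1. MBL2 is a mouse T-cell lymphoma line of the C57BL/6 strain, induced by Moloney murine leukaemia virus. Cells received a single dose of talazoparib with romidepsin (combination), of talazoparib alone or of romidepsin alone, or were left untreated (control), and RNA was taken after 24 h. Each of the 4 groups had 2 libraries, 8 in all. Talazoparib blocks the PARP enzymes and holds them on DNA, and romidepsin blocks class I histone deacetylases. The sources used here give no doses. The protocol mentions 3 replicates per treatment, while 2 libraries per group were analysed here. No label states that paired libraries of a group were grown separately, and the p-values therefore cover a spread that may be technical.

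In this pathway the Ku heterodimer (Ku70 and Ku80) slides onto a broken end and recruits the kinase DNA-PKcs, which activates the nuclease Artemis to open or trim ends. Polymerase lambda fills gaps, and DNA ligase IV with its partners XRCC4 and XLF seals the break. The proteins 53BP1 and RIF1 hold back resection of the ends and so favour this route over homologous recombination. Lymphocytes depend on the same machinery for V(D)J recombination, in which Artemis opens the hairpins left by the RAG enzyme and terminal transferase adds bases to the ends.

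Read counts summed over the listed genes were 28419156 to 38913292 per library. All 11 T-cell markers examined were listed, with a summed level of 2222 to 2303 FPKM (fragments scaled to gene length and library size, as deposited) over the 8 libraries. Within that sum Cd3d fell in the combination and with talazoparib (211 ± 5.91 and 213 ± 17.3 FPKM, against 261 ± 20.9 FPKM in control, SD, n = 2 each), and Thy1 fell in the combination (588 ± 6.18 FPKM, against 669 ± 7.29 FPKM in control). Among markers of other cells, 1 of 5 for B cells, 3 of 5 for myeloid cells, 4 of 5 for fibroblasts and 2 of 5 for erythroid cells were listed. Reads of the ribosomal RNA gene Rn45s made up 0.520% and 0.394% of the talazoparib libraries, against 0.135% to 0.235% elsewhere. Tests ran on read counts with edgeR's quasi-likelihood method over 11934 genes. A gene is said to have risen or fallen where its Benjamini-Hochberg adjusted p over all of them was under 0.05. Against control, 2 of the 11 T-cell markers fell in the combination and 1 with talazoparib, and 0 rose. Of all tested genes 7.28% and 4.64% fell. Log2 fold changes of the 11 ran from -0.41 to 0.13 in the combination (median -0.02) and from -0.39 to 0.22 with talazoparib (median -0.04). The log2 fold changes of Cd3d were -0.41 for the combination and -0.39 for talazoparib (edgeR adjusted p = 0.0308 and 0.0471), with calls in 9 and 4 of 15 alternative settings, and that of Thy1 was -0.29 for the combination (edgeR adjusted p = 0.0343), with calls in 7 of 15. All 3 calls were lost without control 1 (log2 -0.31, -0.29 and -0.27) or control 2 (-0.51, -0.49 and -0.32), and those for the combination also without combination 1 or 2. The Cd3d call for talazoparib was also lost without talazoparib 2, romidepsin 1 or 2, or combination 1 or 2, and that of Thy1 without romidepsin 1 or 2. CPM values are counts scaled to the TMM-adjusted library size, and errors are SDs of n = 2 libraries.

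Dclre1c, which encodes Artemis, was the end joining gene that rose. It was called in the combination and with talazoparib against control, and in the combination against romidepsin. Of all tested genes 17.5%, 11.1% and 11.7% were called there. The Dclre1c calls held in 12, 6 and 7 of 15 alternative settings. In the authors' deposited table only the first had an adjusted p under 0.05 (0.00122, against 0.058 and 0.0708). Dclre1c had 55.2 and 53.4 CPM in the combination libraries, 44.9 and 50.2 CPM with talazoparib, 43.7 and 39.9 CPM with romidepsin, and 36.7 and 35.4 CPM in control. No 2 groups that stand next to each other in this order overlapped, but the steps from romidepsin to control and from combination to talazoparib did not pass the test, and talazoparib was not tested against romidepsin. The other 9 genes were not called in any of the 6 comparisons. Dclre1c lies on chromosome 2, on the forward strand from 3424131 to 3464130 (GRCm38, the mm10 build), and carries gene ID 227525 in the table. On the same build Xrcc6 lies at chr15:81987835-82040085, Xrcc5 at chr1:72307421-72394952, Prkdc at chr16:15637866-15842235 and Rif1 at chr2:52072832-52122383, all on the forward strand. Lig4 lies at chr8:9969049-9977686, Xrcc4 at chr13:89774027-90089608, Nhej1 at chr1:74967139-75125200, Poll at chr19:45552275-45560531 and Trp53bp1 at chr2:121193281-121271407, all on the reverse strand.

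The sequence in front of the Dclre1c start is shown because this gene carried the calls, beside that of Dntt, the terminal transferase gene, which rose in the same comparisons. Each line holds the 250 bases before the RefSeq start on the forward strand (GRCm38.p6), chr2:3423881-3424130 for Dclre1c and chr19:41029025-41029274 for Dntt. Capitals mark matches on either strand to CCAAT (the CCAAT box), GGGCGG (the GC box), TATAAA (the TATA box), TGACGTCA (the cAMP response element), TTTCCCGC or TTTGGCGC (E2F forms) and the palindromic NRF1 motif.
Dclre1c: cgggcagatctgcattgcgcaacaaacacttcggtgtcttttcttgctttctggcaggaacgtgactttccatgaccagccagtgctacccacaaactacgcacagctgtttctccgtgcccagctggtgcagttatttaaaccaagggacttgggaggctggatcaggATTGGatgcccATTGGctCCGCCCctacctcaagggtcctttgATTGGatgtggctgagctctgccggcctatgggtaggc
Dntt: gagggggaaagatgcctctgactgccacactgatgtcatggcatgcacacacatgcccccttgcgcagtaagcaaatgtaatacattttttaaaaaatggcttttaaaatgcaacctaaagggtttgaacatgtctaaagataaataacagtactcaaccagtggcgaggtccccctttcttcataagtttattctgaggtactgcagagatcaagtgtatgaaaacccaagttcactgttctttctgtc

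The Dclre1c window holds 3 CCAAT matches, at 34 to 38, 66 to 70 and 77 to 81 bases before the start, and 1 GC box match at 58 to 63 bases. Of 32851 RefSeq promoter windows of this length, counted over the same 250 bases before each start, 33.8% hold at least 1 CCAAT match and 2.79% hold at least 3. A GC box match is found in 32.7% of them. The Dntt window holds none of the motifs searched. Promoter windows were available for 7 of the 10 genes, 8 windows in all since Lig4 has 2. Xrcc5 has 1 CCAAT match and no other window of these genes outside Dclre1c has one. Matches to GGGCGG number 3 each for Xrcc4 and Xrcc6, 2 for Nhej1, 2 for the second Lig4 window and 1 for Trp53bp1. The first Lig4 window holds an NRF1 match (0.782% of all windows), and that of Xrcc6 holds TTTCCCGC (0.895%). That first Lig4 window also covers the start of Abhd13, a gene on the opposite strand that starts 21 bases from Lig4. The Xrcc6 window and both Lig4 windows precede RefSeq starts that lie inside the gene spans given above, not the starts of those spans. The first Lig4 window begins at 9977681, just within the span end of 9977686. That of Nhej1 begins at 75125227, beyond its span end of 75125200. These matches describe letters in a window and are not evidence of bound factors.

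Levels between genes are compared as deposited FPKM, which corrects for gene length. The Ku genes stood well above the rest. Xrcc6 (Ku70) had 68.2 to 85.9 FPKM over the 8 libraries, with a mean of 77.1, and Xrcc5 (Ku80) had 32.1 to 40.7 FPKM, with a mean of 36.4. Xrcc6 lay above 91.0% of listed genes, whose median was 11.1 FPKM. A middle group of 6 genes followed with closely spaced means: Rif1 14.5, Poll 13.9, Lig4 12.8, Trp53bp1 11.9, Dclre1c 11.8 and Xrcc4 10.7 FPKM. Neighbours within this group could not be ordered, since each lay above the next in only 4 or 5 of the 8 libraries. Prkdc (DNA-PKcs) had 4.88 to 8.67 FPKM and lay below Xrcc4 in all 8 libraries, and Nhej1 (XLF) came last with 0.926 to 2.31 FPKM. Nhej1 rested on 31 to 60 reads per library, the other genes on 419 to 6546.

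**Figure D1:**
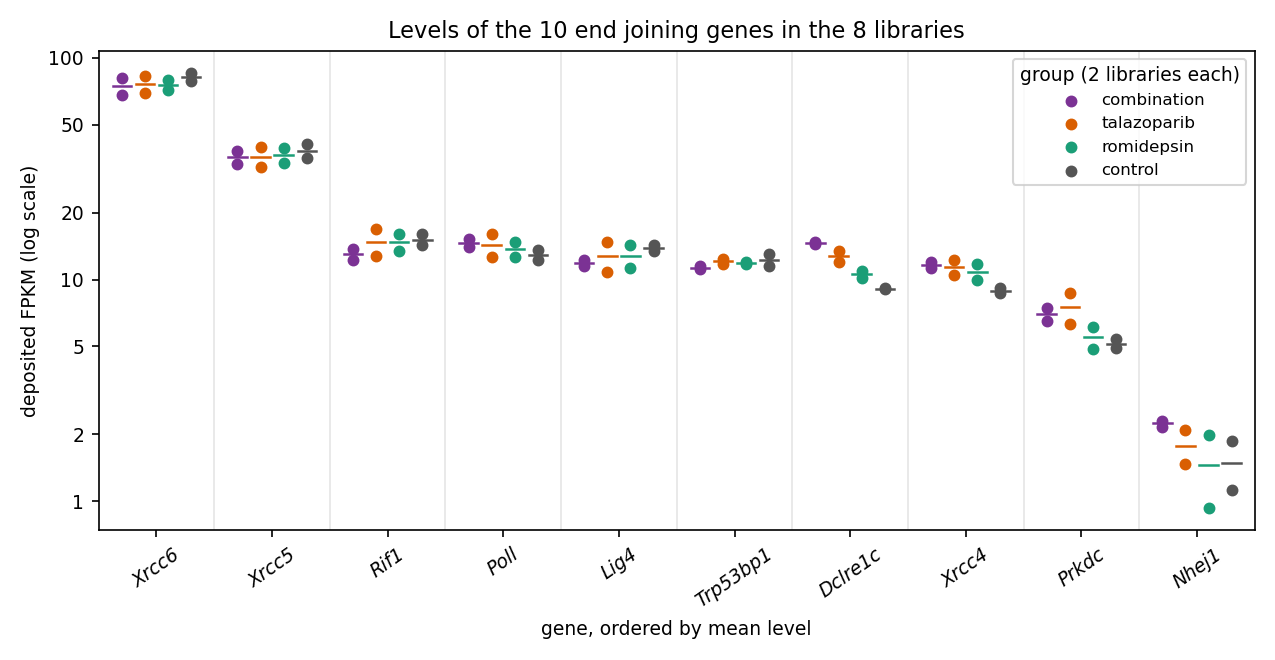
Deposited FPKM on a log axis for each of the 10 genes, ordered by mean level, with 1 point per library, a bar at the mean of 2 libraries, and groups from left to right as combination, talazoparib, romidepsin and control. Xrcc6 and Xrcc5 lie above the other genes in all libraries, and the points of Dclre1c step down from combination (mean 14.6 FPKM) to control (9.10 FPKM).

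The comparison of the combination with control shows both drugs together. Dclre1c averaged 54.3 ± 1.25 CPM in combination libraries and 36.1 ± 0.918 CPM in control, a log2 fold change of 0.59 (SE 0.10, 95% interval 0.37 to 0.81) with an adjusted p of 0.00781 in edgeR's test. It was the 1 gene of 10 called, where 17.5% of all tested genes were called, 10.2% as rises and 7.28% as falls. A further gene, Trp53bp1, had an unadjusted p under 0.05 in edgeR, 2 of 10 in all where 33.6% of tested genes did. In limma on log2(FPKM + 1), 79.6% of all calls were rises, against 58.4% in edgeR. The median of the 10 genes was -0.06 on the log2 scale, against 0.00 for all tested genes. In the authors' deposited table the same gene had a fold change of 1.51 and an adjusted p of 0.00122, and no other gene of the 10 was under 0.05 there. The rise passed in 12 of 15 alternative settings and kept its sign in all 15, with log2 values of 0.56 to 0.68. The call was lost without control 1, control 2 or combination 1, at log2 0.61, 0.56 and 0.57 (edgeR adjusted p = 0.0662, 0.0675 and 0.0501, against 9.99e-05 to 0.0675 over all 15).

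With talazoparib alone, Dclre1c averaged 47.5 ± 3.69 CPM against 36.1 ± 0.918 CPM in control, a log2 fold change of 0.40 (SE 0.10, 95% interval 0.17 to 0.62, edgeR adjusted p = 0.0376). It was again 1 call among 10 genes, where 11.1% of tested genes were called, 6.43% as rises and 4.64% as falls. With Prkdc, 2 of the 10 had an unadjusted p under 0.05 in edgeR, where 29.2% of tested genes did. In limma on log2(FPKM + 1), 76.7% of all calls were rises, against 58.1% in edgeR. The median of the 10 was -0.02 on the log2 scale, against 0.01 for all tested genes. In the authors' deposited table its fold change was 1.32 and its adjusted p 0.058. The call held in 6 of 15 alternative settings. It was lost without control 1 or 2 (edgeR adjusted p = 0.180 and 0.184, log2 0.42 and 0.37), romidepsin 1 or 2 (0.0535 and 0.0522, log2 0.39 and 0.40), talazoparib 2 (0.123, log2 0.32) and combination 1 or 2 (0.0651 and 0.0645, log2 0.40 each). It was also lost with the replicate number as a block (0.0662) and when the other groups were left out of the fit (edgeR adjusted p = 0.10), and adjusted p ran from 0.0186 to 0.184 over all 15 settings.

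The comparison of the combination with romidepsin shows the step on adding talazoparib. Dclre1c averaged 54.3 ± 1.25 CPM in the combination libraries and 41.8 ± 2.67 CPM with romidepsin, a log2 fold change of 0.38 (SE 0.10, 95% interval 0.16 to 0.60, edgeR adjusted p = 0.0437). In the authors' deposited table its fold change was 1.3 and its adjusted p 0.0708. The 10 genes again held 1 call, where 11.7% of tested genes were called, 7.01% as rises and 4.70% as falls, and Dclre1c was also the 1 gene with an unadjusted p under 0.05 in edgeR, against 29.9% of tested genes. In limma on log2(FPKM + 1), 82.2% of all calls were rises, against 59.8% in edgeR. The call held in 7 of 15 alternatives, at log2 values of 0.32 to 0.47 and adjusted p of 0.0248 to 0.203 over all 15. It was lost without control 1 or 2 (edgeR adjusted p = 0.0805 and 0.0796, log2 0.38 each), romidepsin 1 or 2 (0.0953 and 0.203, log2 0.45 and 0.32) and combination 1 or 2 (0.152 and 0.157, log2 0.36 and 0.40). It was also lost with the replicate block (0.0729) and with only the compared groups (0.0569). These 3 comparisons share libraries, so their calls are not independent of each other.

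**Figure D2:**
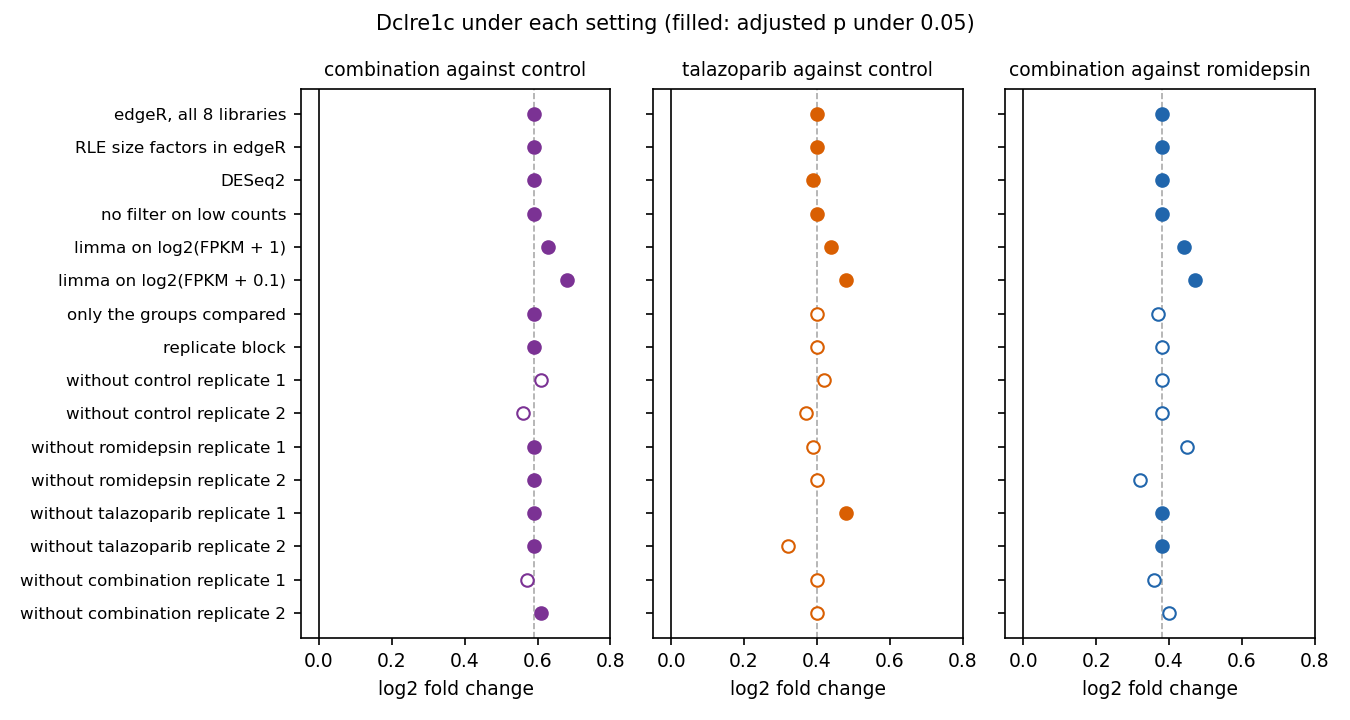
Log2 fold change of Dclre1c in 3 comparisons under the fit to all 8 libraries and 15 alternative settings (1 row each), filled where the adjusted p was under 0.05. All points lie right of 0, between 0.32 and 0.68, and the combination against control is filled in 12 of 15 alternatives.

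For romidepsin alone Dclre1c had a log2 fold change of 0.21 against control (95% interval -0.01 to 0.44, edgeR adjusted p = 0.940), and for the combination against talazoparib 0.19 (-0.03 to 0.41, not called). These intervals include a change of 0, and their upper ends allow fold changes of 1.35 and 1.33. No end joining gene was called in either comparison, where 0.0251% of tested genes were called (3 genes each) and 0 of the 10 had an unadjusted edgeR p under 0.05, against 4.37% of tested genes for romidepsin and 4.27% for the combination against talazoparib. DESeq2 also called 0 of the 10 in both. The interaction term, which asks whether the log2 effects of the drugs add up, was -0.02 for Dclre1c (95% interval -0.34 to 0.30). It passed for none of the 10 genes in edgeR or DESeq2, with 0 at an unadjusted edgeR p under 0.05 (1.29% of tested genes), and for 0.0168% of all tested genes.

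The Dclre1c signal has a limit in the annotation. Suv39h2, a histone methyltransferase gene, lies on the opposite strand and overlaps the Dclre1c gene by 8316 bases, exons included. The library kit marks strand, but whether counting used it is not stated, and without it reads of the shared stretch cannot be told apart. Suv39h2 averaged 23.8 ± 0.827 CPM in the combination, 23.7 ± 2.69 CPM with talazoparib, 27.4 ± 0.643 CPM with romidepsin and 29.5 ± 0.176 CPM in control. Its difference from control thus had the opposite sign to that of Dclre1c and did not pass (log2 -0.31 for the combination and -0.32 for talazoparib, edgeR adjusted p = 0.0928 and 0.104).

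Some markers of other cells moved in the same libraries as Dclre1c. The listed myeloid markers summed to 29.1 to 31.9 FPKM in the combination, 24.6 to 30.4 with talazoparib, 12.7 to 15.7 with romidepsin and 9.27 to 11.6 in control. Against control 2 of the 3 rose in the combination and 2 of the 3 with talazoparib, where 10.2% and 6.43% of all tested genes rose. Log2 fold changes of the 3 ran from 0.83 to 2.36 and from 0.99 to 1.69. Cd79b, the 1 B-cell marker listed, had 8.13 to 10.3 FPKM in the combination, 7.48 to 8.03 with talazoparib, 3.73 to 4.24 with romidepsin and 3.14 to 3.55 in control. It rose in the combination and with talazoparib (log2 1.35 and 1.12). Alternative settings were not examined for the myeloid and Cd79b calls. The 4 fibroblast markers did not move together. Col1a1, a collagen gene, had 0.441 ± 0.142 FPKM in the combination and 0.257 ± 0.0828 FPKM with talazoparib. It had 0.404 ± 0.115 FPKM with romidepsin and 0.241 ± 0.0725 FPKM in control, and was not called against control. Pdgfra, a growth factor receptor gene, had 4.64 ± 0.128 FPKM in the combination, 4.13 ± 0.989 FPKM with talazoparib and 1.97 ± 0.0285 FPKM in control. Pdgfrb, its relative, had 19.1 ± 1.39 FPKM in the combination, 19.5 ± 7.12 FPKM with talazoparib and 9.10 ± 0.572 FPKM in control. Both rose in the combination (log2 1.19 and 0.97, edgeR adjusted p = 0.00324 and 0.0186) and with talazoparib (0.91 and 1.01, edgeR adjusted p = 0.0119 and 0.0224). Acta2, a smooth muscle actin gene, fell in both, with 38.6 ± 4.75 FPKM in the combination, 38.6 ± 1.74 FPKM with talazoparib and 64.5 ± 3.44 FPKM in control (log2 -0.84 and -0.83, edgeR adjusted p = 0.00293 and 0.00400). The Acta2 calls and the combination call of Pdgfra held in all 15 alternative settings. Without control 1 or 2 the talazoparib calls of Pdgfra (edgeR adjusted p = 0.103 and 0.0743, log2 0.85 and 0.95) and Pdgfrb (0.142 and 0.105, log2 0.95 and 1.05) and the combination call of Pdgfrb (0.116 and 0.0869, log2 0.92 and 1.01) were lost. The last was also lost without combination 1 or 2 (edgeR adjusted p = 0.0672 and 0.0994, log2 1.04 and 0.90), and without talazoparib 2 the value of Pdgfrb for talazoparib was 0.59. Summed fibroblast markers, of which Acta2 is the largest part, had 58.5 to 67.2 FPKM in the combination, 55.5 to 69.5 with talazoparib, 64.2 to 67.9 with romidepsin and 73.0 to 78.7 in control, and the 2 erythroid markers had 3.99 to 4.26, 3.60 to 3.89, 2.48 to 2.91 and 2.48 to 3.05 in the same order. Of the erythroid markers, Klf1 had log2 fold changes against control of -0.43 in the combination and 0.49 with talazoparib, and Epor 0.56 and 0.32. Neither erythroid marker was called. The part of markers of other cells in the result was not tested, and the remaining markers of the lists are not among the listed genes. In such bulk libraries, more cells of a type and more RNA per cell cannot be told apart.

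By the smallest root mean square difference of centred log2 CPM over the 8 libraries, the genes whose pattern was most like that of Dclre1c were Akr1c13, Dpy19l3 and Plpp1. Their differences from it were 0.0410, 0.0456 and 0.0511 log2 units, where Dclre1c itself deviated from its mean by 0.225 and the median tested gene differed from it by 0.297. These genes encode an aldo-keto reductase, a C-mannosyltransferase and a lipid phosphatase. Their log2 fold changes for the combination against control were 0.61, 0.57 and 0.57. They were picked for likeness over these same libraries, so values near that of Dclre1c follow from the choice and are no further result.

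The kinase that works with Artemis showed the largest value after talazoparib without passing the test. Prkdc had 92.2 and 80.6 CPM in the combination, 79.7 and 108 CPM with talazoparib, 81.9 and 65.1 CPM with romidepsin, and 66.1 and 70.7 CPM in control. Its combination and talazoparib libraries all lay above both control libraries, while romidepsin 1 lay above combination 2 and talazoparib 1. The log2 fold change was 0.45 with talazoparib (95% interval 0.08 to 0.83, edgeR adjusted p = 0.112) and 0.34 with the combination (-0.04 to 0.71, edgeR adjusted p = 0.189). Leaving out talazoparib 1 gave 0.65 with an adjusted p of 0.0283 in edgeR, and over all 15 settings the adjusted p for talazoparib ran from 0.0283 to 0.396, and without talazoparib 2 the log2 value was 0.22. Prkdc starts 466 bases from Mcm4, a replicative helicase gene transcribed the other way, which had 363 ± 1.85 CPM in the combination, 384 ± 0.393 CPM with talazoparib and 427 ± 0.375 CPM in control, below control where Prkdc was above it (edgeR adjusted p = 0.0630 for the combination and 0.207 for talazoparib).

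The Ku genes had slightly lower means after treatment and were not called. Xrcc5 libraries with talazoparib or romidepsin overlapped control, as did Xrcc6 libraries with romidepsin. Xrcc6 had 141 and 167 CPM in the combination, 145 and 171 CPM with talazoparib, 178 and 159 CPM with romidepsin, and 176 and 188 CPM in control. Xrcc5 had 82.9 and 94.7 CPM in the combination, 81.3 and 98.9 CPM with talazoparib, 106 and 89.7 CPM with romidepsin, and 96.5 and 108 CPM in control. For both genes the combination libraries lay below both control libraries, with a gap between replicates about as wide as that between groups. Log2 fold changes for the combination against control were -0.24 for Xrcc6 (95% interval -0.52 to 0.04, edgeR adjusted p = 0.203) and -0.20 for Xrcc5 (-0.51 to 0.11, edgeR adjusted p = 0.327). Xrcc6 overlaps Desi1, a gene on the opposite strand, with shared exon bases, and Desi1 had a log2 fold change of -0.13 in the same comparison (edgeR adjusted p = 0.334).

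The ligation genes did not move together. Lig4, the ligase, had 45.9 and 48.9 CPM in the combination, 43.6 and 58.7 CPM with talazoparib, 61.6 and 48.5 CPM with romidepsin, and 58.1 and 60.4 CPM in control. Xrcc4, which stabilises it, had 18.3 and 17.0 CPM in the combination, 18.9 and 15.9 CPM with talazoparib, 16.3 and 19.0 CPM with romidepsin, and 15.0 and 13.9 CPM in control. Every treated library of Xrcc4 lay above both control libraries, and both combination libraries of Lig4 lay below them. The log2 fold changes for the combination against control were -0.32 for Lig4 (95% interval -0.69 to 0.04, edgeR adjusted p = 0.197) and 0.29 for Xrcc4 (-0.03 to 0.60, edgeR adjusted p = 0.187). Nhej1, whose product XLF bridges ends with XRCC4, had 1.80 and 1.92 CPM in the combination, 1.76 and 1.23 CPM with talazoparib, 1.79 and 0.843 CPM with romidepsin, and 1.02 and 1.66 CPM in control. Its interval for the combination ran from -0.47 to 1.43, which includes both no change and a rise of more than 2-fold.

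Poll, the gap-filling polymerase, had the log2 fold change nearest to 0 of the 10 genes in the combination and with talazoparib, though not with romidepsin. It had 32.8 and 35.3 CPM in the combination, 38.1 and 29.3 CPM with talazoparib, 31.5 and 36.9 CPM with romidepsin, and 34.4 and 30.0 CPM in control, and all groups overlapped. Its log2 fold change for the combination was 0.08 (95% interval -0.26 to 0.43, edgeR adjusted p = 0.741), which leaves room for fold changes of 0.833 to 1.34.

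The regulators of end choice had their lowest means in the combination. Trp53bp1 (53BP1) had 108 and 104 CPM in the combination, 112 and 117 CPM with talazoparib, 121 and 118 CPM with romidepsin, and 118 and 130 CPM in control. Rif1, its effector, had 115 and 102 CPM in the combination, 107 and 141 CPM with talazoparib, 144 and 121 CPM with romidepsin, and 130 and 141 CPM in control. Combination libraries of both genes lay below both control libraries, and the talazoparib libraries of Rif1 spanned most of the range. The log2 fold changes for the combination against control were -0.23 for Trp53bp1 (95% interval -0.43 to -0.02, unadjusted p = 0.0321, edgeR adjusted p = 0.112) and -0.32 for Rif1 (-0.66 to 0.02, edgeR adjusted p = 0.172). Trp53bp1 varied least of the 10 genes over the 8 libraries, with a coefficient of variation of 6.92% on the CPM scale, against 27.2% for Nhej1, which varied most. Trp53bp1 shares exon bases with Tubgcp4 on the opposite strand, which had a log2 fold change of 0.01 for the combination (edgeR adjusted p = 0.963), and Xrcc4 shares some with Tmem167 (0.06, edgeR adjusted p = 0.688).

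**Figure D3:**
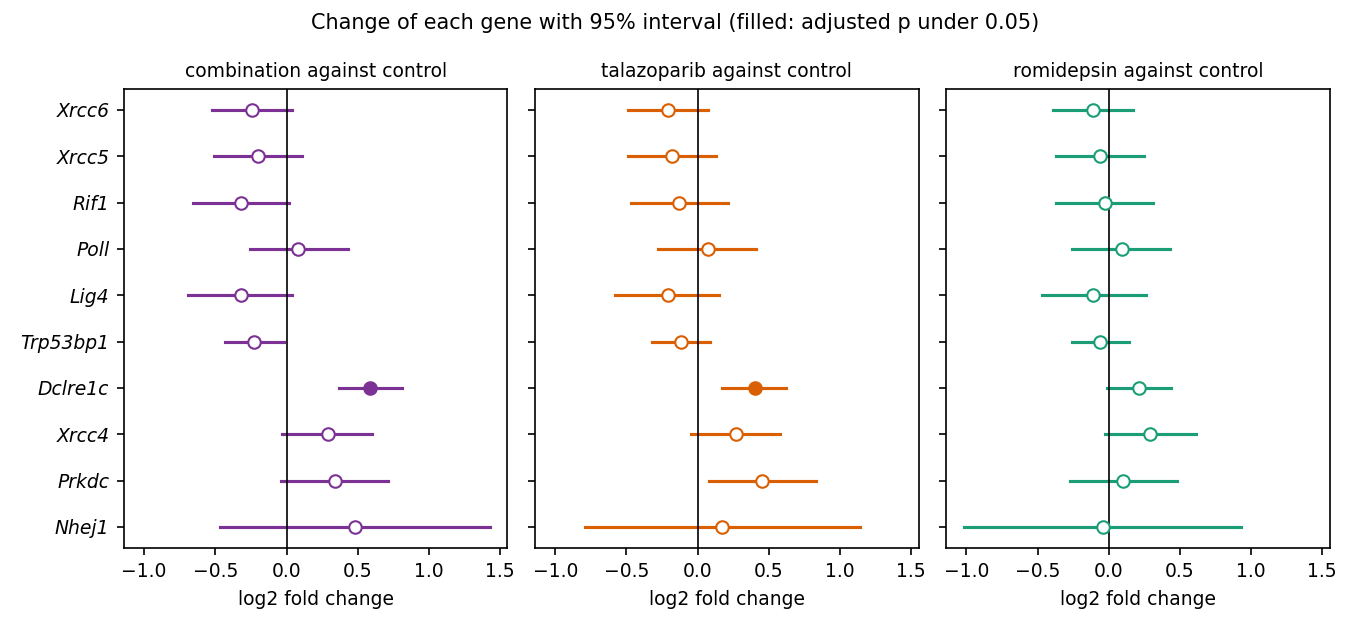
Log2 fold change with its 95% interval (edgeR fit to all 8 libraries) for each of the 10 genes in the combination, talazoparib and romidepsin groups against control, filled where the adjusted p was under 0.05. Dclre1c is the only filled point, at 0.59 for the combination and 0.40 for talazoparib, and the interval of Nhej1 is the widest in all 3 panels.

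Counted over the genes, the combination and control libraries did not overlap for 9 of the 10, 4 higher and 5 lower in the combination, where 66.2% of all tested genes did not overlap, 33.7% higher and 32.5% lower. For talazoparib against control this held for 5 genes, 3 higher and 2 lower, against 56.7% of tested genes, 29.0% higher and 27.7% lower. For romidepsin against control it held for 2, both higher, against 37.3%, 18.7% higher and 18.6% lower. Combination and romidepsin libraries did not overlap for 4 genes, 2 higher and 2 lower, against 60.9%, 30.8% higher and 30.1% lower. Combination and talazoparib libraries did not overlap for 3 genes, 2 higher and 1 lower, against 27.2%, 15.5% higher and 11.7% lower. When only the combination and control libraries entered the fit, 4 genes passed in that comparison: Dclre1c and Prkdc higher, and Lig4 and Rif1 lower (edgeR adjusted p = 0.0367 for Prkdc, 0.0345 for Lig4 and 0.0470 for Rif1). In the same setting 3068 of the 11934 tested genes were called, against 2091 with all 8 libraries. Over all 15 settings the adjusted p of these 3 genes ran up to 0.509, 0.449 and 0.493, and the other 14 settings did not call them.

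The direction of the gap between the 2 libraries of a group was counted for the 10 genes. The same count over all tested genes was not made, so these splits are a description only. In the talazoparib group 7 of the 10 genes were higher in library 2, and Xrcc4, Nhej1 and Poll were higher in library 1. In the romidepsin group 8 genes were higher in library 1, and Xrcc4 and Poll were higher in library 2. The median gap between the 2 libraries was 0.33 log2 units for the 10 genes with talazoparib and 0.24 with romidepsin, where all tested genes had median gaps of 0.20 and 0.16. The combination split 5 against 5, and in control 7 genes were higher in library 2 and 3 in library 1. In the combination and in control the medians for these genes were 0.10 and 0.12, and those of all tested genes 0.13 and 0.12.

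Ratios of partner genes within a library do not depend on its scaling. The pairs were chosen as known binding partners after the values had been seen, so the ratios are a description. The ratio of Xrcc6 to Xrcc5 FPKM was 2.06 and 2.13 in the combination, 2.16 and 2.09 with talazoparib, 2.03 and 2.15 with romidepsin, and 2.21 and 2.11 in control. The Ku genes thus kept nearly the same proportion in all 8 libraries. The ratio of Lig4 to Xrcc4 was 0.953 and 1.09 in the combination, 0.873 and 1.40 with talazoparib, 1.43 and 0.966 with romidepsin, and 1.47 and 1.65 in control, and every treated library lay below both control libraries. Dclre1c to Prkdc had ratios of 1.99 and 2.23 in the combination, 1.89 and 1.55 with talazoparib, 1.78 and 2.09 with romidepsin, and 1.86 and 1.69 in control. Trp53bp1 to Rif1 ranged from 0.734 to 0.926, both ends in the talazoparib group. Between 2 groups of 2 libraries an exact permutation test cannot pass the threshold, and no permutation test was run on these ratios.

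**Figure D4:**
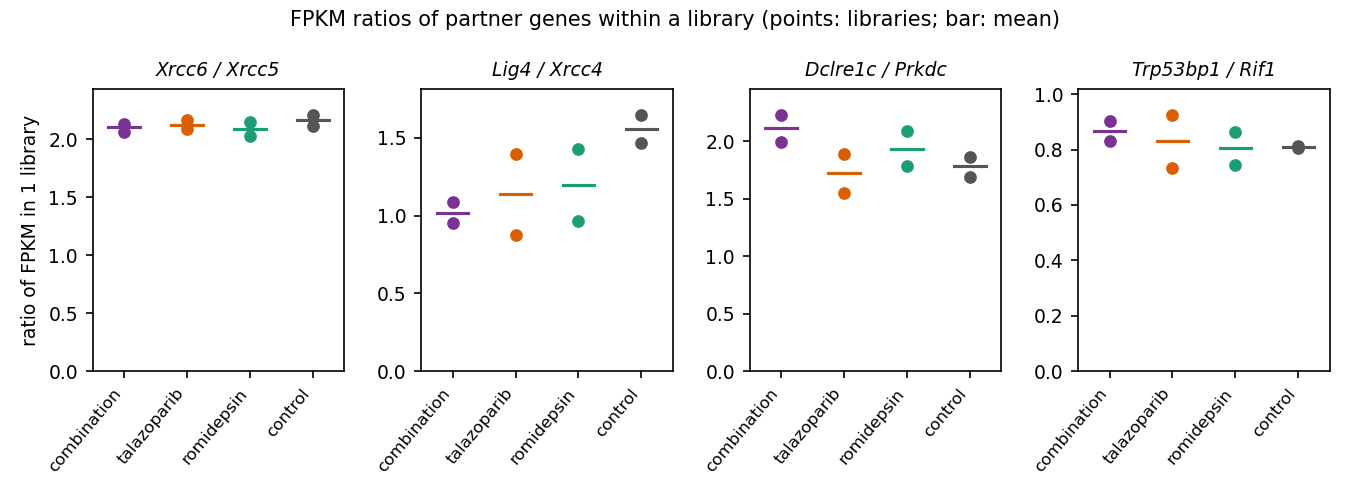
Ratio of deposited FPKM values of 2 partner genes within each library (1 point per library, bar at the mean of 2) for the combination, talazoparib, romidepsin and control groups, on axes that start at 0. Xrcc6 to Xrcc5 stays between 2.03 and 2.21, while Lig4 to Xrcc4 is 1.47 and 1.65 in control and at most 1.43 in a treated library.

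Related genes of break repair were counted from 4 lists. Of 10 accessory end joining genes, 1 rose and 1 fell in the combination against control and 1 rose with talazoparib, with medians of -0.14 and -0.05 on the log2 scale. Of all tested genes, 10.2% rose and 7.28% fell in the combination, and 6.43% rose with talazoparib. Dntt, whose product terminal transferase adds bases at V(D)J junctions, had 120 and 143 CPM in the combination, 110 and 159 CPM with talazoparib, 69.1 and 56.2 CPM with romidepsin, and 72.7 and 76.7 CPM in control. All libraries with talazoparib lay above all those without it, a split that was not counted over all tested genes. Dntt rose by 0.81 in the combination (95% interval 0.40 to 1.23, edgeR adjusted p = 0.0216) and by 0.85 with talazoparib (0.43 to 1.27, edgeR adjusted p = 0.0259). It also rose in the combination against romidepsin (1.07, edgeR adjusted p = 0.0140). The call for the combination was lost without control 1 or 2 (edgeR adjusted p = 0.128 and 0.0941, log2 0.77 and 0.85) or combination 1 or 2 (0.0574 and 0.124, log2 0.94 and 0.68), and that for talazoparib without control 1 or 2 (0.155 and 0.115, log2 0.80 and 0.88) or talazoparib 2 (0.0619, log2 0.56) and with only the compared groups (0.0653). Tdp2, which removes topoisomerase adducts from ends, fell in the combination, with 26.6 ± 0.902 CPM against 34.0 ± 0.0203 CPM in control (log2 -0.36, edgeR adjusted p = 0.0380), and the call held in 6 of 15 settings (adjusted p 0.0323 to 0.173). Among the libraries left out, it held only without talazoparib 1 or 2.

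Of 12 tested damage signalling and shieldin genes, which lie upstream of or act with 53BP1 and RIF1, 1 fell in the combination, the same 1 fell with talazoparib, and none rose, where 7.28% and 4.64% of all tested genes fell. Their medians were -0.20 and -0.22 on the log2 scale, against 0.00 and 0.01 for all tested genes. H2afx, which encodes the histone H2AX that is phosphorylated around breaks, had 50.6 and 41.4 CPM in the combination, 57.4 and 30.8 CPM with talazoparib, 92.8 and 101 CPM with romidepsin, and 91.1 and 80.6 CPM in control. It fell by 0.90 in the combination (95% interval -1.47 to -0.33, edgeR adjusted p = 0.0431) and by 0.96 with talazoparib (-1.54 to -0.39, edgeR adjusted p = 0.0457). Without talazoparib 2 the value for talazoparib was -0.58, without talazoparib 1 it was -1.48, and the call held in 4 of 15 settings for talazoparib and 7 of 15 for the combination (adjusted p 0.000809 to 0.212 and 0.00142 to 0.211). Of the libraries left out, the talazoparib call held only without talazoparib 1 and the combination call only without talazoparib 1 or 2. Mdc1, the adaptor that binds phosphorylated H2AX, was named after its values were seen. It had 92.2 ± 7.92 CPM in the combination, 88.7 ± 8.42 CPM with talazoparib, 126 ± 2.58 CPM with romidepsin and 105 ± 4.62 CPM in control. Against control its log2 fold change was -0.18 in the combination and 0.27 with romidepsin (edgeR adjusted p = 0.252 and 0.940). In the combination against romidepsin 2 of the 12 genes fell, where 4.70% of all tested genes did. They were H2afx (-1.08, edgeR adjusted p = 0.0333) and Mdc1 (-0.45, edgeR adjusted p = 0.0324). That call held in 7 of 15 settings (adjusted p 0.00557 to 0.188), and among the libraries left out only without talazoparib 1 or 2.

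Alternative end joining, the route that relies on short homologies, had 2 falls among 9 genes in the combination against control and none with talazoparib, with medians of -0.25 and -0.20 on the log2 scale, where 7.28% and 4.64% of all tested genes fell. Rbbp8 (CtIP), which starts resection, had 70.1 ± 1.46 CPM in the combination and 91.7 ± 2.55 CPM in control (log2 -0.39, edgeR adjusted p = 0.0230). Lig3, the ligase of this route, had 71.1 ± 2.89 CPM in the combination and 93.1 ± 1.21 CPM in control (log2 -0.39, edgeR adjusted p = 0.0288). Both calls were lost without control 1 or 2 or combination 1 or 2 (edgeR adjusted p = 0.0859 to 0.147), and in limma on FPKM values (0.0648 to 0.109), and that of Lig3 also with the replicate block (0.0510 in edgeR). Parp1, a target of talazoparib, had 504 and 510 CPM in the combination, 511 and 484 CPM with talazoparib, 572 and 590 CPM with romidepsin, and 580 and 588 CPM in control. Its libraries with talazoparib lay below all others, a split that was not counted over all tested genes. Parp1 was not called (log2 -0.20 and -0.23, edgeR adjusted p = 0.0980 for the combination and 0.0847 for talazoparib).

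Of the V(D)J recombination list, 2 of 4 genes were tested, and Rag1 and Rag2 were not analysed here. Hmgb1, 1 of the 2 tested, was not called for the combination or talazoparib against control (log2 0.11 and 0.13). It had 500 ± 7.94 CPM in the combination, 505 ± 0.261 CPM with talazoparib, 617 ± 52.1 CPM with romidepsin and 463 ± 19.7 CPM in control. Hmgb2, a DNA-bending cofactor of the RAG enzyme, fell in both comparisons (7.28% and 4.64% of all tested genes fell), with 613 ± 49.4 CPM in the combination, 628 ± 55.1 CPM with talazoparib and 1003 ± 51.1 CPM in control. The log2 fold changes were -0.71 for the combination (edgeR adjusted p = 0.00594) and -0.67 for talazoparib (edgeR adjusted p = 0.0103). The first call was lost without control 1 (0.0524 in edgeR, log2 -0.67), and the second without control 1 or 2 (0.0826 and 0.0534 in edgeR, log2 -0.63 and -0.73). In romidepsin alone against control no gene of the 4 lists was called.

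**Figure D5:**
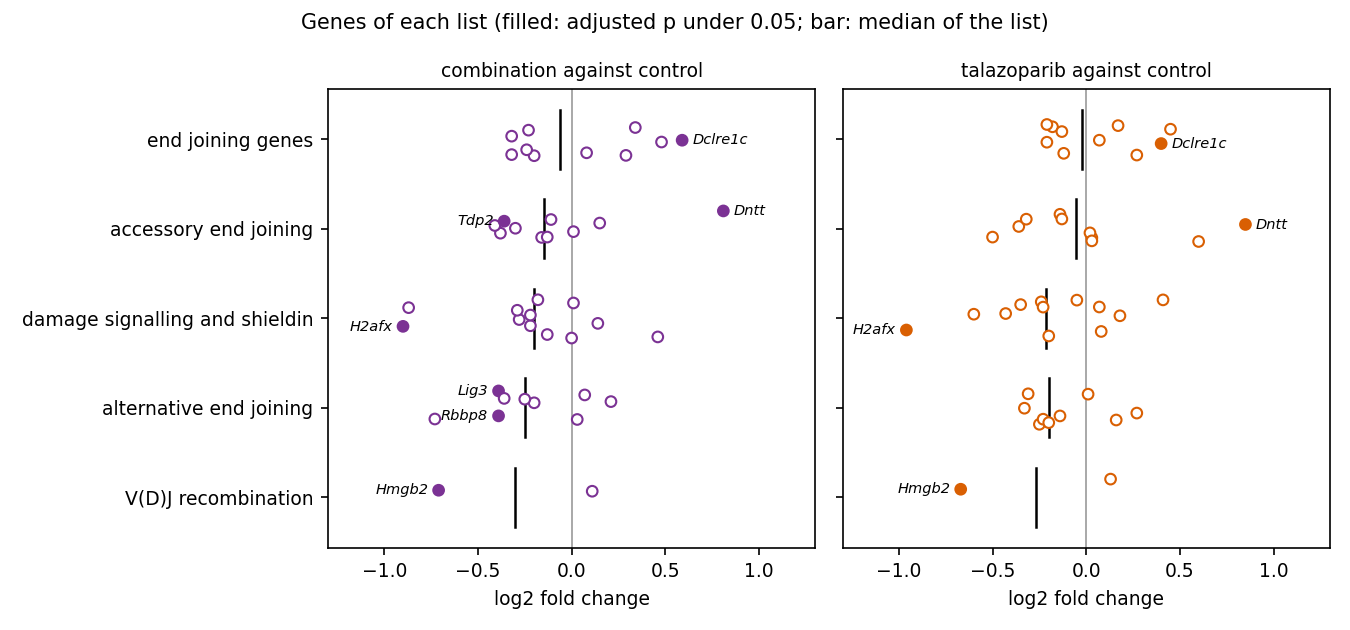
Log2 fold change of each tested gene in the 10 end joining genes and 4 related lists, for the combination and talazoparib against control, filled and named where the adjusted p was under 0.05, with a bar at the median of each list and points spread vertically only for legibility. Dclre1c and Dntt are the filled points to the right of 0, and the other filled points lie to the left.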

How the data were processed

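RNA of 8 libraries was sequenced with a stranded mRNA kit (TruSeq Stranded mRNA), per the labels' protocols. The submitters' processing notes name HISAT2, StringTie and the mm10 build, with versions, settings and strand of counting not given in the sources used here. Raw read counts and FPKM values per gene come from 1 deposited table, per the file headers. The authors' log2 normalised values entered no test. The authors' signed fold changes and adjusted p-values, deposited in the same table, are quoted only where named. Every listed gene has at least 1 read in each library, so genes silent in any library were not analysed here.

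Counts were filtered with filterByExpr, scaled by TMM and tested with edgeR 4.0.16 (quasi-likelihood, 1 term per group over all 8 libraries, 4 residual degrees of freedom) in R 4.3.3. Benjamini-Hochberg adjustment ran over 11934 genes. The SE is the log2 fold change divided by the square root of F, and intervals use the t distribution of the test. Alternatives were RLE scaling, DESeq2 1.42.0, no filter, limma 3.58.1 on log2(FPKM + 1) and log2(FPKM + 0.1), only the compared groups, a replicate block, and leaving out each library. Gene members and lists were chosen with earlier results of these data known. All 10 members were named, with Parp1 and at most 2 called genes per related list and direction in each comparison with control. Overlapping or adjacent genes were named where they are among the listed genes, as were the 3 genes most like a called member. Mdc1 and the marker genes Cd3d, Thy1, Pdgfra, Pdgfrb and Acta2 were named after their values were seen. List symbols were matched by gene ID through RefSeq (GRCm38.p6). Coordinates are from GENCODE on GRCm38, and promoter sequences from RefSeq (GRCm38.p6).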

Additional observations from a re-analysis of the deposited data

How the results depend on the processing

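Dclre1c kept its sign in all 15 alternatives for talazoparib against control, combination against control and combination against romidepsin. Among 890 alternative values of the 10 genes, 801 kept direction and call, 20 lost a call, 4 gained one and 65 changed sign, and the causes were not tested. The 1 end joining gene called became 0 with only the compared groups and 0 with the replicate block, for talazoparib against control and again for combination against romidepsin, and 4 with only the compared groups for combination against control. Over all tested genes, 2091 calls for combination against control became 3068 with only the compared groups, and 1321 calls for talazoparib became 296 with only the compared groups and 860 with the replicate block. The 3 calls for romidepsin became 8 in DESeq2 and 0 with the block, the 3 for combination against talazoparib became 27 in DESeq2, and the 2 interaction calls became 7 in DESeq2 and 1 with the block. The interaction needs all groups, so no fit with only the compared groups exists for it. Deviations of same-numbered libraries had correlations of -0.33 to 0.29 between groups. No label pairs these libraries and a shared batch was not tested, so the replicate block is given for completeness. For talazoparib against control, combination against control and combination against romidepsin, the median of all genes moved most in limma. It was 0.074, 0.083 and 0.083 on log2(FPKM + 1), and 0.091, 0.102 and 0.104 on log2(FPKM + 0.1). In the edgeR fit to all 8 libraries it was 0.006, 0.002 and -0.002. The part of this shift in the limma share of rises and in sign changes was not tested.

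Leaving out 1 library gave 143 to 1516 calls for talazoparib against control, 0 to 10 for romidepsin against control, 305 to 2700 for combination against control, 156 to 1990 for combination against romidepsin, 0 to 9 for combination against talazoparib and 1 to 8 for the interaction. End joining genes called ran from 0 to 2 for talazoparib against control, and from 0 to 1 for combination against control and against romidepsin. For combination against romidepsin, limma on log2(FPKM + 1) and log2(FPKM + 0.1) turned Xrcc4 to 0.10 and 0.11 and Poll to 0.09 and 0.10. The Lig4 interaction was 0.00 with RLE, DESeq2 and no filter, and 0.03 and 0.04 in limma. With 1 library left out, log2 values that changed sign ran as follows. In talazoparib against control, the range was Nhej1 -0.15 to 0.55, Poll -0.14 to 0.24 and Rif1 -0.34 to 0.06. For romidepsin against control, the range was Xrcc5 -0.20 to 0.04, Prkdc -0.08 to 0.25, Lig4 -0.30 to 0.05, Nhej1 -0.67 to 0.42, Poll -0.04 to 0.19, Trp53bp1 -0.14 to 0.01 and Rif1 -0.17 to 0.08. In combination against control, the range was Poll -0.02 to 0.17. For combination against romidepsin, the range was Xrcc4 -0.10 to 0.12 and Poll -0.11 to 0.12. In combination against talazoparib, the range was Xrcc5 -0.16 to 0.13, Xrcc6 -0.16 to 0.09, Prkdc -0.32 to 0.12, Lig4 -0.31 to 0.12, Xrcc4 -0.10 to 0.15, Poll -0.16 to 0.22 and Rif1 -0.37 to 0.02. For the interaction of the 2 drugs, the range was Xrcc5 -0.09 to 0.19, Xrcc6 -0.05 to 0.20, Prkdc -0.42 to 0.01, Lig4 -0.20 to 0.23, Nhej1 -0.11 to 0.97, Dclre1c -0.10 to 0.06, Poll -0.25 to 0.13, Trp53bp1 -0.12 to 0.02 and Rif1 -0.34 to 0.06. Nhej1 had 31 to 60 reads per library and the highest fitted coefficient of variation of the 10 genes (25.9%), and the part of each in its wide interval was not tested. The alternatives for genes of the related lists and for marker genes were chosen after seeing the data.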
